A study of Mus musculus with 6 samples.

Results

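A set of 9 genes that are mutated, or carry risk variants, in amyotrophic lateral sclerosis (ALS) and frontotemporal dementia (FTD) was followed in BV2 cells, a mouse microglial cell line. Microglia are the macrophages that reside in the brain. The genes were taken by name: Tardbp, Matr3, Grn, Tmem106b, C9orf72, Optn, Sqstm1, Vcp and Ubqln2. Of these 9 genes, 8 had a row among the 25032 genes of the deposited FPKM table, and Optn, with 0 reads, was found only among the 55359 genes of the count table. Poly(A) RNA was sequenced from 3 libraries labelled as overexpressing TDP43-NLS and 3 labelled as overexpressing GFP. The series' design text calls the first construct an NLSmut form, that is, TDP-43 altered in the signal that carries it into the nucleus, and GFP is the control protein. Both groups are the same cell line, and the labels give neither the vector, promoter, species and duration of the constructs nor whether the libraries came from separate cultures or clones. The p-values therefore cover the spread among these libraries only, and that spread may be technical.

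The products of these genes meet in a few processes. TDP-43 and matrin 3 are nuclear proteins that bind RNA, and TDP-43 lost from the nucleus and aggregated in the cytoplasm is the hallmark lesion of most ALS and many FTD cases. Progranulin (Grn), TMEM106B and C9orf72 act at lysosomes and endosomes, optineurin (Optn) and p62 (Sqstm1) hand ubiquitinated cargo to autophagosomes, and VCP and ubiquilin 2 (Ubqln2) extract or shuttle ubiquitinated proteins for degradation. In microglia progranulin is made in large amounts and both secreted and delivered to lysosomes. In the deposited Gene Ontology annotation, autophagy was the process shared by 4 of the genes (C9orf72, Sqstm1, Ubqln2 and Vcp), and lysosome was shared by 3 (C9orf72, Grn and Tmem106b).

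The libraries held 15062131 to 18005592 counted reads. Of 14 microglia and macrophage markers, 13 had reads, with a summed level of 2557 to 2613 CPM (read counts scaled to library size) in the TDP43-NLS libraries and 2871 to 2940 CPM in the GFP libraries. Of these 13 markers, 4 rose and 7 fell in the test described below. Together these are 84.6% of them, against 57.5% of all tested genes, 29.3% higher and 28.2% lower. Among markers of resting microglia, P2ry12 had 0.261 CPM in the TDP43-NLS and 1.27 CPM in the GFP libraries. Tmem119 had 3.79 CPM in the TDP43-NLS and 2.19 CPM in the GFP libraries, Cx3cr1 had 13.4 CPM in the TDP43-NLS and 7.82 CPM in the GFP libraries, and Sall1 had 0 reads. Summed markers of astrocytes, neurons, oligodendrocytes, lymphocytes, and fibroblasts with endothelium stayed at or below 5.4 CPM per list in every library. The neuronal list reached 0.93 to 1.14 CPM in the TDP43-NLS and 0.13 to 0.518 CPM in the GFP libraries, all of it from Tubb3, with the other 4 markers at 0. The fibroblast and endothelial list reached 1.73 to 1.94 CPM in the TDP43-NLS and 0.576 to 0.84 CPM in the GFP libraries, and Pecam1 had 75 reads in the TDP43-NLS and 8 in the GFP libraries, while Cdh5 had 13 reads in the TDP43-NLS and 18 in the GFP libraries. The part of such cells in the results was not tested. One GFP library stood apart: the chi-square per degree of freedom between counts was 7.24 and 7.27 for the pairs with GFP replicate 2, against 1.198 for GFP replicates 1 and 3 and 1.87 to 2.73 among the TDP43-NLS libraries. For Tardbp, Matr3, Vcp and Ubqln2 the result without it is given as well. For most partner genes no fit without it is given.

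Sqstm1, C9orf72, Grn and Tmem106b rose and Tardbp fell in the libraries labelled TDP43-NLS, while Vcp, Matr3 and Ubqln2 were not called. All 8 genes with reads passed the filter on low counts and were tested with edgeR's quasi-likelihood test across 13199 genes, with Benjamini-Hochberg adjustment over all of them and a threshold of 0.05. The 5 calls among 8 genes compare with 57.5% of all tested genes called, 29.3% higher and 28.2% lower. Without overlap between the groups were 6 of the 8, against 63.2% of all tested genes. The median log2 fold change of the 8 genes was 0.09 and that of all tested genes 0.00.

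Promoter sequence was available from RefSeq (GRCm38.p6) for 7 of the 9 genes. The 250 bases before the start are shown for the gene that rose most, for the called gene with a match to the NRF2 core motif, and for the gene that fell. Capitals mark matches, on either strand, to GGGCGG, the GC box bound by Sp1, and to TGACNNNGC, the core of the antioxidant response element bound by NRF2.
Sqstm1, chr11:50210821-50211070, minus strand: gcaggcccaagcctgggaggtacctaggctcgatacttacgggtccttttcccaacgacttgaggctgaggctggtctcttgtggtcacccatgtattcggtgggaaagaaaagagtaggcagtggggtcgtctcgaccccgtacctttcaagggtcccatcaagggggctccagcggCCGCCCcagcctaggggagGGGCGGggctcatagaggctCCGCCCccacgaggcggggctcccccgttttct
Tmem106b, chr6:13069509-13069758, plus strand: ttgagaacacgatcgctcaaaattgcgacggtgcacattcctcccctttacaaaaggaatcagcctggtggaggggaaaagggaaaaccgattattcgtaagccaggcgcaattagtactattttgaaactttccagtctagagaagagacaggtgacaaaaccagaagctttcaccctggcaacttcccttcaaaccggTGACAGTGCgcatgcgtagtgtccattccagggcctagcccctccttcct
Tardbp, chr4:148626997-148627246, minus strand: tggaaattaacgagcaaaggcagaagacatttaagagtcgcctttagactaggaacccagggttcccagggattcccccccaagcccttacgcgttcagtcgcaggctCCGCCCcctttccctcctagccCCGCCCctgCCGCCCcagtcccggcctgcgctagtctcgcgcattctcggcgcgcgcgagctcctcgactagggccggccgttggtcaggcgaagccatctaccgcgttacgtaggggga
The GC box was found in 5 of the 7 windows, and in 32.7% of 32851 promoter windows of this length. The most matches, 5, lay before C9orf72, whose window is not shown, with 3 each before Sqstm1 and Tardbp. TGACNNNGC was found before Tmem106b and Vcp, and in 10.2% of all windows. CACGTG, the E-box that TFEB binds, was found in 0 of the 7 windows and in 6.02% of all windows. No pair of matches overlapped in the windows shown. These letters were chosen with the sequences and results in view, and a match describes the sequence only.

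**Figure D1:**
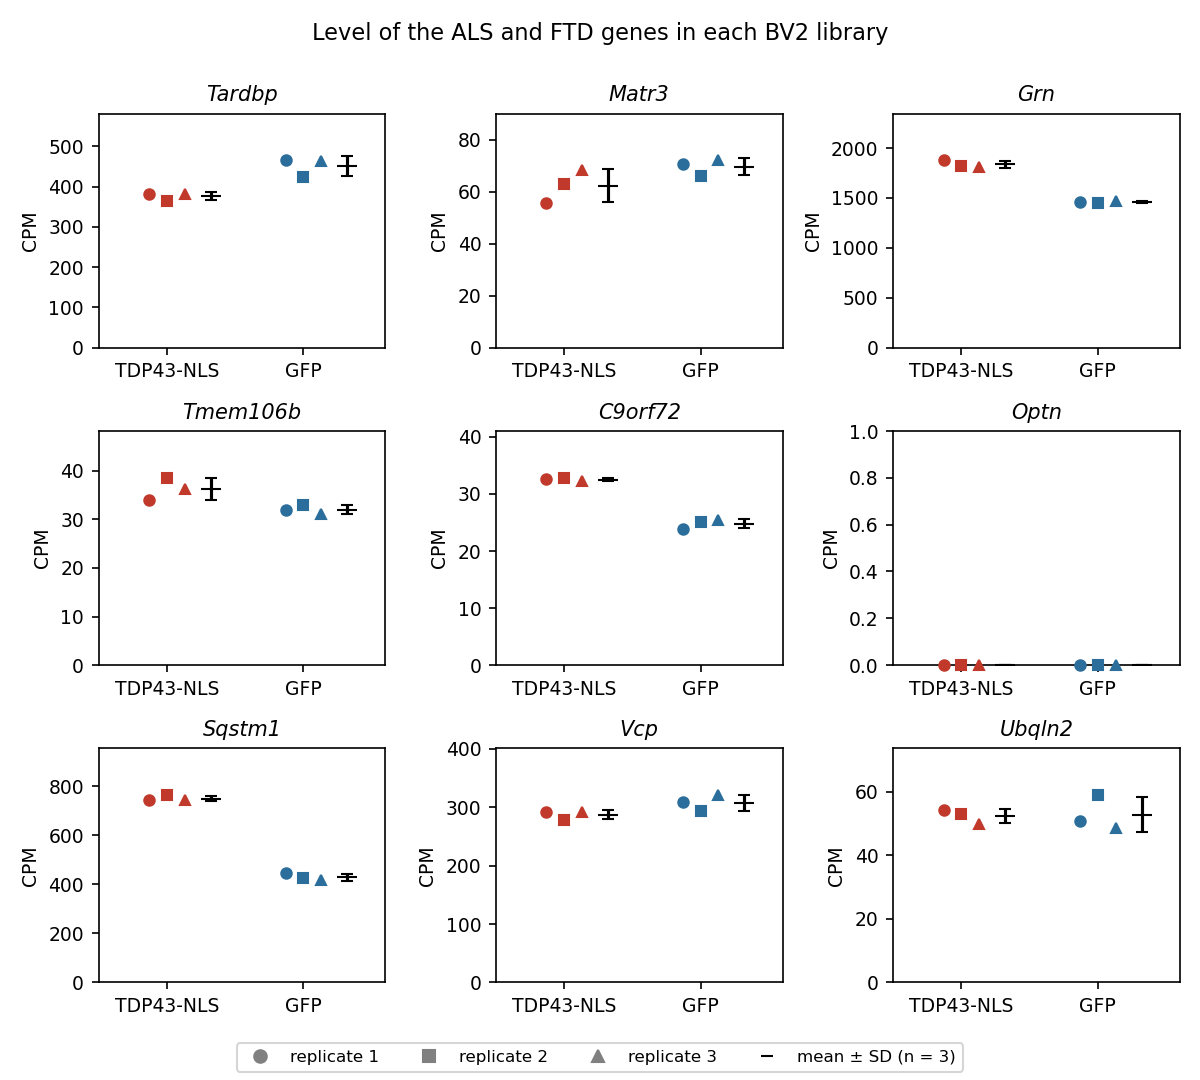
Level of each of the 9 genes in CPM (TMM-scaled, linear axes from 0) in the 3 libraries labelled TDP43-NLS (left) and the 3 labelled GFP (right). Symbols mark the replicates and the black bar the mean ± SD over 3 libraries. Sqstm1, C9orf72 and Grn separate the groups upwards and Tardbp downwards, while Optn lies at 0 in all libraries.

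Among the RNA-binding proteins, Tardbp (ENSMUSG00000041459, chromosome 4, 148696839 to 148711476, minus strand, GRCm39) encodes TDP-43, which is known to bind its own transcript and limit it. Tardbp had 382, 365 and 382 CPM in the TDP43-NLS libraries, against 465, 423 and 464 CPM in the GFP libraries. Each TDP43-NLS library was below each GFP library, and GFP replicate 2 was the lowest of its group. The log2 fold change was -0.26 (95% interval -0.36 to -0.16, adjusted p = 0.000291), which is 0.835 of the GFP level. Without GFP replicate 2 it was -0.31 (adjusted p = 8.92e-10), but the GFP spread was then only that of replicates 1 and 3, the closest pair. The count table has no row for a construct or for GFP, so the overexpression was not measured here. The labels name no species for the construct, so whether its reads would count in this mouse Tardbp row is not known. Each direction given here rests on the labels. The opposite-strand gene Masp2 overlaps 21.3% of the Tardbp span, but had 19 reads in all libraries together.

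Matr3 (ENSMUSG00000037236, chromosome 18, 35695191 to 35726888, plus strand) encodes matrin 3, a nuclear matrix protein that binds RNA and DNA. It had 55.7, 62.9 and 68.5 CPM in the TDP43-NLS libraries, against 70.9, 66.2 and 72.1 CPM in the GFP libraries. The groups overlapped, with GFP replicate 2 below TDP43-NLS replicate 3. The log2 fold change of -0.16 (95% interval -0.31 to -0.01) was not called, with an adjusted p of 0.0621. It was called without GFP replicate 2 (-0.19, adjusted p = 0.00354) and without TDP43-NLS replicate 3 (-0.22, adjusted p = 0.0219), and was -0.081 without TDP43-NLS replicate 1 (adjusted p = 0.309). With the replicate number as a block the adjusted p was 0.04. The Matr3 values are uncertain: a same-strand gene, annotated as protein-coding under the name Snhg4 (ENSMUSG00000117694), covers 80.7% of its span and had only 35 reads in all. The handling of reads shared by both genes is not stated in those sources that were used.

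Among the lysosomal and endosomal genes, Grn (ENSMUSG00000034708, chromosome 11, 102321141 to 102327874, plus strand), whose loss of one copy in humans causes FTD with TDP-43 inclusions, had the highest level of the 9 genes per length, in FPKM. It had 1877, 1825 and 1810 CPM in the TDP43-NLS libraries, against 1463, 1453 and 1466 CPM in the GFP libraries. The groups were far apart relative to their spread, with coefficients of variation of 1.90% and 0.442%. Grn rose by a log2 fold change of 0.33 (95% interval 0.25 to 0.41, adjusted p = 4.11e-06), or 1.26-fold.

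C9orf72 (ENSMUSG00000028300, chromosome 4, 35191285 to 35226175, minus strand), the gene that in humans carries the repeat expansion, acts with Smcr8 and Wdr41 in a complex at lysosomes. It had 32.5, 32.8 and 32.2 CPM in the TDP43-NLS libraries, against 23.9, 25.0 and 25.4 CPM in the GFP libraries. Every TDP43-NLS library exceeded every GFP library, and C9orf72 rose by a log2 fold change of 0.39 (95% interval 0.27 to 0.52, adjusted p = 6.44e-05). A same-strand pseudogene, Gm12366, overlaps 2.5% of the C9orf72 span and had 305 reads in all libraries together. Its means were 3.63 FPKM in the TDP43-NLS and 3.35 FPKM in the GFP libraries. The 2 partners of C9orf72 were called in opposite directions. Smcr8 rose, with 171 ± 4.33 CPM in the TDP43-NLS and 122 ± 4.55 CPM in the GFP libraries (SD, n = 3 each, log2 fold change 0.49, adjusted p = 7.29e-07). Wdr41 fell, with a mean of 32.3 CPM in the TDP43-NLS and 35.9 CPM in the GFP libraries (n = 3 each, log2 fold change -0.15, SE 0.06, adjusted p = 0.0478). The Wdr41 call ended without TDP43-NLS replicate 1 or 3, without GFP replicate 1 or 3, under the replicate block, in DESeq2, and in edgeR and limma without a filter on low values.

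Tmem106b (ENSMUSG00000029571, chromosome 6, 13069758 to 13089268, plus strand), a lysosomal membrane protein and risk gene for FTD with progranulin loss, showed the smallest called change of the 5 called disease genes. It had 34.0, 38.6 and 36.4 CPM in the TDP43-NLS libraries, against 31.8, 33.0 and 31.2 CPM in the GFP libraries. The groups did not overlap, but the closest pair, TDP43-NLS replicate 1 and GFP replicate 2, lay 0.914 CPM apart. Tmem106b rose by a log2 fold change of 0.18 (95% interval 0.05 to 0.32, adjusted p = 0.0217). This call ended without TDP43-NLS replicate 2 (adjusted p = 0.0962), without GFP replicate 1 (0.0547) and without GFP replicate 3 (0.0806), with scaling by library totals (0.0603), in DESeq2 (0.114) and in limma on FPKM values (0.0999 to 0.175).

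Among 19 listed partners of progranulin and TMEM106B, mostly lysosomal, 15 were tested, of which 6 rose and 4 fell (median log2 fold change -0.03). That is 66.7% called, against 57.5% of all tested genes, 29.3% higher and 28.2% lower. Slpi, a secreted protease inhibitor that shields progranulin from cleavage, rose most, with 37.2 ± 1.45 CPM in the TDP43-NLS and 8.97 ± 2.09 CPM in the GFP libraries (SD, n = 3 each, log2 fold change 2.05, adjusted p = 6.63e-09). Ctsl, cathepsin L, which cleaves progranulin into granulins, rose by 0.52 on the log2 scale. Tfeb, a transcription factor of lysosomal genes, fell to 25.7 ± 0.604 CPM in the TDP43-NLS libraries, against 55.7 ± 5.91 CPM in the GFP libraries (SD, n = 3 each, log2 fold change -1.12, adjusted p = 3.67e-08). Psap, prosaposin, which binds progranulin and escorts it to lysosomes, fell by 0.40, and Tmem106a, a paralog of Tmem106b, fell by 0.36. Another paralog, Tmem106c, rose by 0.17 (adjusted p = 0.03), close to the threshold. As the Tmem106b call also ended in several alternatives, a difference in direction among the paralogs is uncertain. Genes of this list called higher numbered 5 in DESeq2 and with library totals, and 5 to 6 on leaving out a library. Which gene lost its call there is not given.

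Of the autophagy receptors, Sqstm1 (ENSMUSG00000015837, chromosome 11, 50090193 to 50101654, minus strand) encodes p62, which links ubiquitinated cargo to LC3 on autophagosomes and also binds KEAP1, the inhibitor of the transcription factor NRF2. Of the 8 tested disease genes it changed most. It had 742, 763 and 744 CPM in the TDP43-NLS libraries, against 445, 424 and 416 CPM in the GFP libraries. The groups lay far apart, with 297 CPM between their closest libraries. The log2 fold change was 0.81 (95% interval 0.72 to 0.89, adjusted p = 2.25e-09), a 1.75-fold rise, and its interval lay above those of the other 7 tested genes. It exceeded the fold change of 91.6% of all tested genes, and it was the one gene of the 8 still called when tested against a log2 fold change of 0.5. The opposite-strand gene Mrnip overlaps 6.54% of the Sqstm1 span and had 413 reads in all. Its means were 2.02 FPKM in the TDP43-NLS and 2.03 FPKM in the GFP libraries.

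Optn (ENSMUSG00000026672), the receptor that TBK1 phosphorylates, had 0 reads in each of the 6 libraries and was not tested. By counting error alone, 0 reads allow up to 3 per library, that is 0.167 to 0.199 CPM. In the RefSeq gene order its neighbours on chromosome 2 include both read and unread genes: Mcm10, on one side, had 15.4 FPKM in the TDP43-NLS and 16.0 FPKM in the GFP libraries, and Ccdc3, on the other, had 5 reads in all. A count of 0 in this table does not by itself show that a gene is silent. Raver1, a broadly expressed splicing co-regulator, was also listed at 0, and its expression in these cells was not tested otherwise.

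The other receptors and regulators of this step rose more often than they fell. Of 23 listed genes 22 were tested, of which 13 rose and 3 fell, with a median log2 fold change of 0.20 against 0.00 for all tested genes. Called were thus 72.7% of the list, against 57.5% of all tested genes, 29.3% higher and 28.2% lower. As this list was chosen with earlier results of these data known, its share is a description and not a test. Tnfaip3 (A20) and Tnip1 (ABIN-1), ubiquitin-binding brakes on NF-kB signalling, rose by 1.29 and 1.13 and Wdfy3 (ALFY), a scaffold that works with p62 on aggregates, by 1.06 on the log2 scale. Tbk1, itself an ALS gene, rose by 0.20, and the p62-like receptor Nbr1 by 0.30. Keap1 fell to 27.1 ± 0.970 CPM in the TDP43-NLS libraries, against 51.7 ± 2.82 CPM in the GFP libraries (SD, n = 3 each, log2 fold change -0.94, adjusted p = 2.48e-08). It lies on chromosome 9, where genes averaging 5 CPM or more had a median log2 fold change of -0.32. Nfe2l2, which encodes NRF2, fell by 0.30 and Gabarapl1, an LC3-family protein, by 0.16.

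In ubiquitin-dependent degradation, Vcp (ENSMUSG00000028452, chromosome 4, 42979963 to 43000507, minus strand) encodes the segregase that pulls ubiquitinated proteins out of complexes and membranes. It had 292, 278 and 292 CPM in the TDP43-NLS libraries, against 309, 293 and 320.6 CPM in the GFP libraries. The groups did not overlap, but GFP replicate 2 lay 0.431 CPM above the nearest TDP43-NLS library. The log2 fold change of -0.10 (95% interval -0.19 to -0.00) missed the threshold with an adjusted p of 0.0758. It passed without GFP replicate 2 (-0.13, adjusted p = 0.0014), with scaling by library totals (-0.13, adjusted p = 0.018) and in limma on filtered FPKM values (-0.13, adjusted p = 0.0376 and 0.0378). Of 30 listed VCP cofactors 27 were tested, and 6 rose and 7 fell, which is 48.1% called against 57.5% of all tested genes. Ngly1, which strips sugars from extracted glycoproteins, rose by 0.39, Ubxn6 by 0.33 and Zfand2b by 0.25. Ufd1, a component of the UFD1-NPL4 adaptor, fell by 0.48 and lies on chromosome 16, whose genes had a median log2 fold change of -0.23. Yod1, a deubiquitinase, fell by 0.45 and Ubxn4 by 0.27. In DESeq2, and in limma without a filter, 1 of the cofactors was called higher.

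Ubqln2 (ENSMUSG00000050148, chromosome X, 152281223 to 152284566, plus strand), a shuttle between ubiquitinated proteins and the proteasome, was not called. It had 54.4, 53.0 and 49.9 CPM in the TDP43-NLS libraries, against 50.9, 59.0 and 48.5 CPM in the GFP libraries. The groups overlapped, and GFP replicate 2 was the highest of all. The log2 fold change was -0.01 with a 95% interval of -0.16 to 0.14 (adjusted p = 0.913), and turned to 0.076 without GFP replicate 2 and 0.035 without TDP43-NLS replicate 3, in neither case called. Of the other ubiquilins, Ubqln4 had 239 ± 2.88 CPM in the TDP43-NLS and 244 ± 9.48 CPM in the GFP libraries (SD, n = 3 each, log2 fold change -0.03, adjusted p = 0.56). Ubqln1 fell by 0.12 (adjusted p = 0.033), a call that ended on leaving out any library but GFP replicate 1. Ubqln5 and Ubqlnl were listed at 0.

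**Figure D2:**
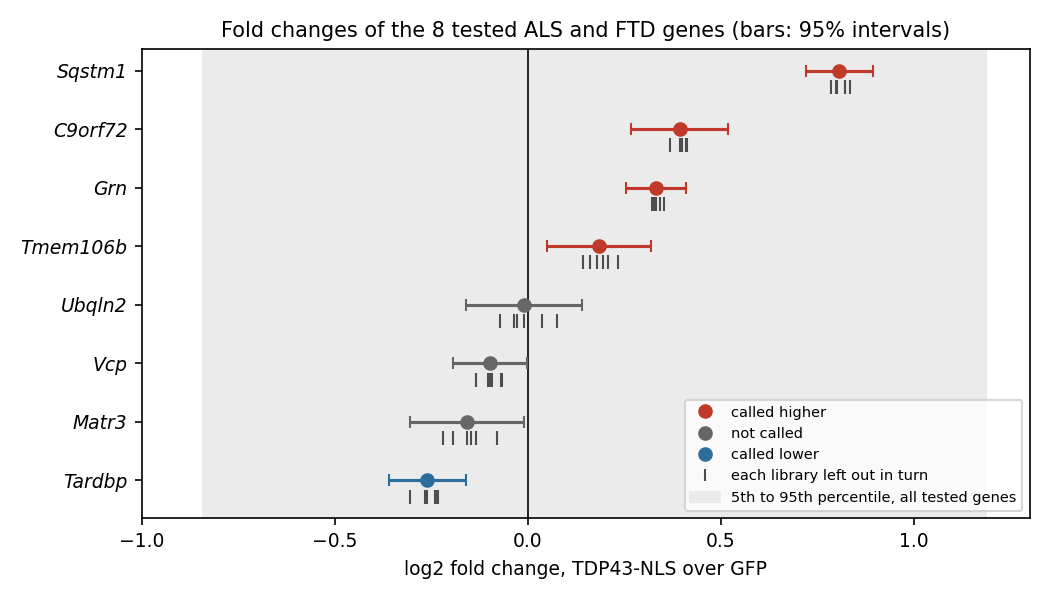
Log2 fold change of the 8 tested genes, TDP43-NLS over GFP, with 95% intervals from the edgeR fit. Ticks below each point give the value with each library left out, and the grey band spans the 5th to 95th percentile of all tested genes (-0.84 to 1.19). Sqstm1 lies furthest from 0 at 0.81, and the ticks of Ubqln2 fall on both sides of 0.

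Scaled by length, the order of levels differed little between the groups. In the TDP43-NLS libraries Grn led with 522 FPKM, followed by Sqstm1 with 220.5, Vcp with 58.5, Tardbp with 47.7, Ubqln2 with 15.5, C9orf72 with 6.98, Matr3 with 6.06 and Tmem106b with 5.17 FPKM. In the GFP libraries Grn had 426, Sqstm1 129, Vcp 64.2, Tardbp 58.6, Ubqln2 16.0, Matr3 6.95, C9orf72 5.45 and Tmem106b 4.68 FPKM. C9orf72 and Matr3 thus stood in opposite order. Matr3 and Tmem106b overlapped in the TDP43-NLS libraries, and no neighbours in the order overlapped in the GFP libraries. Vcp and Tardbp, the next closest of the abundant genes, differed 1.23-fold in the TDP43-NLS and 1.10-fold in the GFP libraries.

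**Figure D3:**
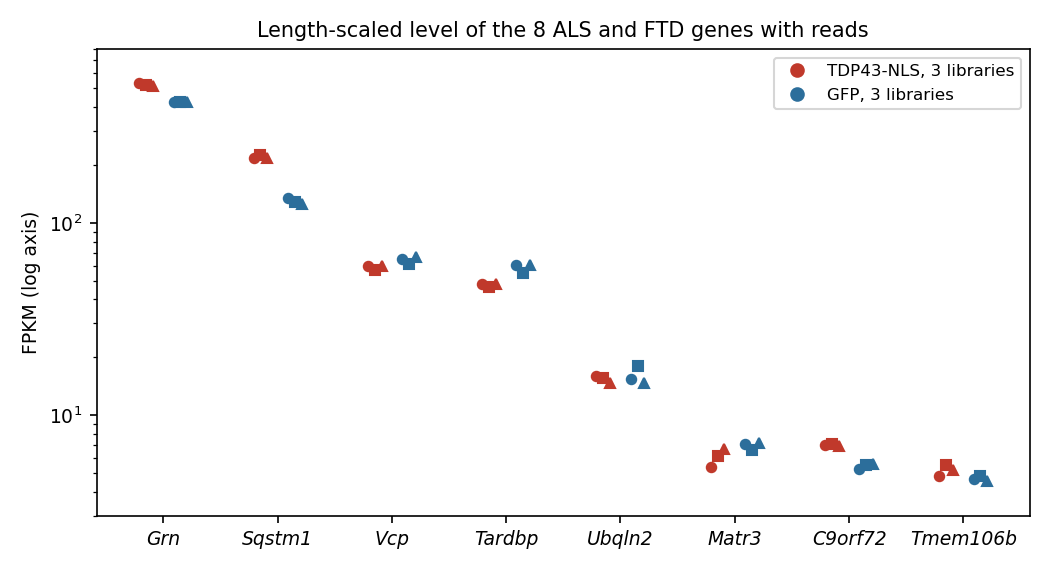
FPKM (reads scaled by gene length and by counted reads, log axis) of the 8 genes with reads, ordered by their GFP mean. Symbols are single libraries, TDP43-NLS left and GFP right for each gene. Levels span from about 5 FPKM for Tmem106b to over 400 FPKM for Grn, and C9orf72 and Matr3 change places between the groups.

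The chromosomes of the 8 genes showed little shift of their own. For genes averaging 5 CPM or more the median log2 fold change was 0.01 on chromosome 4, which holds Tardbp, C9orf72 and Vcp, and 0.01 on chromosome 11, which holds Grn and Sqstm1. The medians were 0.05 on chromosome 6, 0.09 on chromosome 18 and 0.06 on X. Genes with the nearest profile were sought by the root mean square difference of centred log2 CPM over the 6 libraries, among 9950 genes. For Tardbp these were Blvra, biliverdin reductase, at 0.012 and Tspyl1 at 0.0154, where the median gene stood at 0.183. For Sqstm1 they were Ncf4, a subunit of the phagocyte NADPH oxidase, at 0.024 and Msr1, a scavenger receptor, at 0.0331, where the median gene stood at 0.415.

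Further ALS and FTD genes were called in both directions. Of 36 listed genes outside the 9, 30 were tested, and 8 rose and 10 fell, while 12 were not called. The list had its median at 0.01 on the log2 fold change scale. The share called lay near the 57.5% of all tested genes, of which 29.3% were higher and 28.2% lower. DESeq2 and each limma fit called 5 higher. Glt8d1, a glycosyltransferase, rose by 0.54, Taf15, an RNA-binding protein, by 0.39 and Spg11, which takes part in lysosome reformation, by 0.37 on the log2 scale. Chmp2b, an ESCRT-III subunit on chromosome 16, fell by 0.50, Hnrnpa1 by 0.40 and Vapb, a tether of the endoplasmic reticulum, by 0.39. Sod1 had 228 ± 8.32 CPM in the TDP43-NLS and 232 ± 37.1 CPM in the GFP libraries (SD, n = 3 each, log2 fold change -0.02, adjusted p = 0.871). GFP replicate 2 had 3197 Sod1 reads, against 3998 and 4364 in GFP replicates 1 and 3. The GFP mean and SD of Sod1 thus lean on that library, and no fit without it is given here.

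Nuclear partners of TDP-43 and matrin 3 mostly fell, as Tardbp did. Of 26 listed splicing proteins, nuclear import receptors and related factors, 25 were tested, and 19 fell and 2 rose. Their median stood at -0.19 on the log2 scale. The share called was 84%, against 57.5% of all tested genes, 29.3% higher and 28.2% lower. The list was chosen with earlier results of these data known, so this share is a description and not a test. Nor was it matched for level: the lowest tested gene of the list, Pspc1, had 67.5 CPM in the GFP libraries. On leaving out a library, 14 to 20 genes of the list fell. Tested against a log2 fold change of 0.5, 0 were called lower and 0 higher. Kpna1, an importin alpha on chromosome 16, fell by 0.56, Hnrnpl, a splicing regulator, by 0.45 and Tnpo1, a nuclear import receptor, by 0.42. The 2 that rose were Kpna4, another importin alpha, by 0.46 and Nup62, a nuclear pore protein, by 0.15. All these changes are relative to the reads of the whole library. In bulk RNA, fewer cells of a kind and less RNA per cell cannot be told apart.

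**Figure D4:**
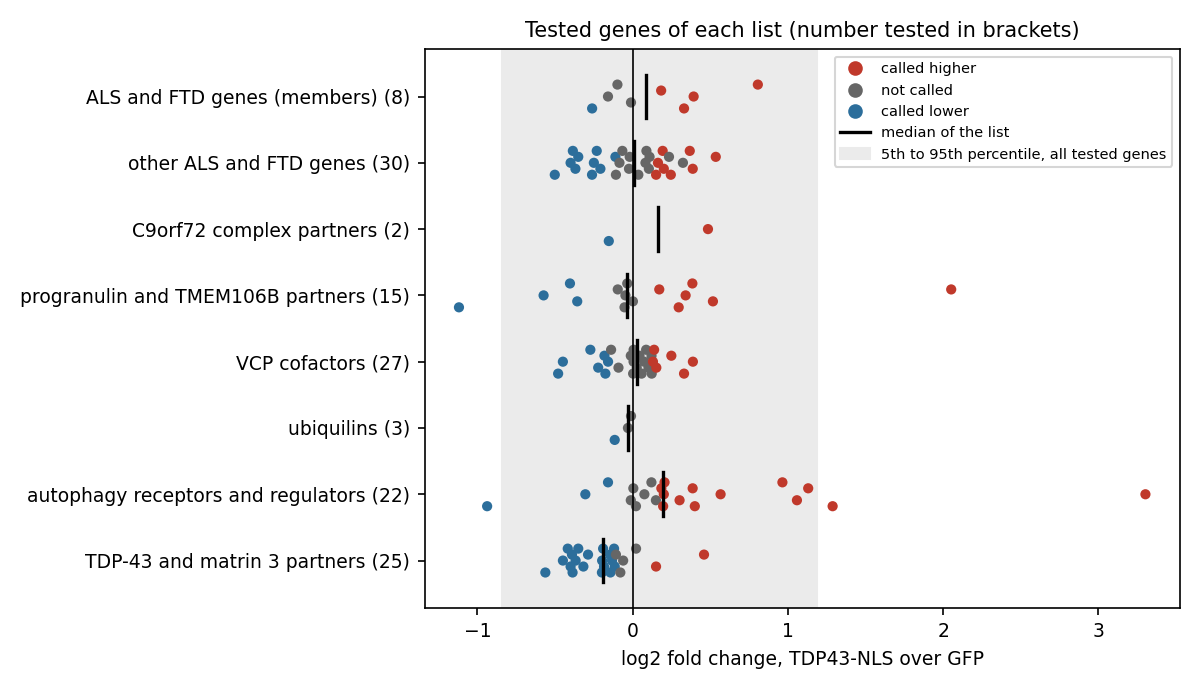
Log2 fold change of the tested genes of each list, TDP43-NLS over GFP, with 1 point per gene and the list median as a black line. The grey band spans the 5th to 95th percentile of all tested genes. The TDP-43 and matrin 3 partners lie mostly below 0 (median -0.19), the autophagy receptors and regulators mostly above it (median 0.20), the ubiquilins lie at or below -0.01, and the other lists lie on both sides of 0.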

How the data were processed

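A count table and an FPKM table were used. The deposited counts are whole reads per gene, and the authors' FPKM values are the same reads scaled by gene length and library total, since 1 length per gene related both in every library (largest relative deviation 7.75e-14). The build was GRCm39 and the tools named were Bowtie2 2.2.3, HTSeq 0.6.0 and HISAT2 2.1.0, per the submitters' processing notes, which give no roles. The labels and notes state no strand setting, so overlapping genes are uncertain.

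Counts were tested with edgeR 4.0.16 in R 4.3.3: filterByExpr (10 reads, 15 in total), TMM scaling, the quasi-likelihood test with group as the only term, two-sided, adjusted over 13199 genes. The standard error is the log2 fold change over the square root of F. The biological coefficient of variation was 4.62%. Alternatives used DESeq2 1.42.0, limma 3.58.1 on log2(FPKM + 1) or log2(FPKM + 0.1), other scalings, a log2 fold change of 0.5 as the null, and each library left out. The procedure was tested on simulated data. Lists of up to 6 genes are named in full; from longer ones the 3 largest called changes each way at 5 CPM or more were named, and any others were chosen with their values in view. Some genes, among them Hnrnpa1, Hnrnpa2b1 and Tbk1, stand in more than 1 list. Values of some such genes are left out here. Members and lists were chosen with earlier results of these data known, so the shares called describe these data and test nothing. The shares were not matched for expression level.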

Additional observations from a re-analysis of the deposited data

How the results depend on the processing

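Calls for Sqstm1 held in all 15 alternatives (0.77 to 0.83), and those for Grn (0.32 to 0.35 on leaving out a library), C9orf72 (0.37 to 0.41) and Tardbp (-0.31 to -0.23) in 14, ending against a log2 fold change of 0.5, where Grn was 0.33, C9orf72 0.39, Tmem106b 0.18 and Tardbp -0.26. Of the 9 genes 1 was then higher and 0 lower, of all partner genes 6 and 2, and of all tested genes 1221 and 744. Tmem106b also lost its call with library totals (0.15), DESeq2 (0.18) and limma (0.12, or 0.14 with the smaller pseudocount), and ran from 0.14 to 0.23 on leaving out a library. Matr3 gained a call with library totals (-0.20), without the low-count filter (-0.15) and with the replicate block (-0.16), with a range of -0.22 to -0.081 on leaving out a library. Vcp gained one with library totals (-0.13) and limma (-0.13), with a range of -0.13 to -0.068. Ubqln2 ran from -0.072 to 0.076 on leaving out a library and turned round without TDP43-NLS replicate 3 (0.035) or GFP replicate 2 (0.076). Optn gave no value in any fit. Genes lower numbered 3 with library totals, 2 without the filter, 2 with limma on filtered values and 1 to 3 on leaving out a library, and genes higher 3 to 4. Partner genes higher numbered 35, and 21 in limma on unfiltered FPKM. The replicate block gave 4 higher and 2 lower among the 9, and the replicate numbers showed no pairing: deviations of same-numbered libraries correlated at -0.016, -0.0112 and 0.00189. Partner genes ran from 31 to 36 higher and 33 to 45 lower on leaving out a library, all tested genes from 3512 to 4210 and 3188 to 4041. The cause of these shifts was not tested. The 0 reads of Optn do not show that it is silent, since a broadly expressed gene, Raver1, was also listed at 0. The limit from counting error holds only if Optn reads were counted at all, which was not tested.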

Other observations

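Stmn2 (stathmin 2) and Unc13a are neuronal genes whose splicing depends on TDP-43 in human cells. Stmn2 was listed at 0 in all libraries. Unc13a, which primes synaptic vesicles, had 10.1 ± 0.770 CPM in the TDP43-NLS and 8.59 ± 0.918 CPM in the GFP libraries (SD, n = 3 each, log2 fold change 0.23, adjusted p = 0.0758), and counts per gene do not show splicing. Stmn2, Unc13a, Myo6 and Ikbke were picked after their values were seen. Myo6, a myosin motor that binds optineurin, had 3.06 ± 0.623 CPM in the TDP43-NLS and 0.296 ± 0.103 CPM in the GFP libraries (SD, n = 3 each, log2 fold change 3.30, adjusted p = 6.92e-07), the largest change among all partner genes tested. Myo6 lies below the 5 CPM used for naming genes. Its GFP level rests on 15 reads in the 3 libraries together, against 151 in the TDP43-NLS libraries, so the size of the change is uncertain. Ikbke, a kinase related to Tbk1, had 83.6 ± 4.51 CPM in the TDP43-NLS and 42.8 ± 2.17 CPM in the GFP libraries (SD, n = 3 each, log2 fold change 0.96, adjusted p = 1.28e-08).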
